A study of Homo sapiens with 4 samples.

Results

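Aminoacyl-tRNA synthetases were followed in 2 human colon cell lines treated with chondroitin sulfate from sturgeon (SCS). The 39 genes were chosen by name, with earlier results of these data known. All 39 were found among the 18650 loci with a fragment. They comprise 20 genes for the enzymes of the cytosol, 3 genes for the scaffold proteins AIMP1, AIMP2 and EEF1E1, and 16 genes for the enzymes of mitochondria, whose names end in 2. RNA-seq was made from HT-29, a human colorectal cancer line, and from NCM460, a line used as normal colon cells. Each line was sampled untreated (control) and with SCS at 100 μg/mL for 24 h. Each condition had 1 library, 4 in all, so no difference below has a replicate check, and intervals cover counting error only.

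A synthetase joins an amino acid to its tRNA, which then carries it to the ribosome. Separate nuclear genes serve the cytosol and the mitochondrion for most amino acids, while GARS and KARS make both forms. Several cytosolic enzymes sit in a large multi-synthetase complex held together by the 3 scaffold proteins. When amino acids run short or the endoplasmic reticulum is stressed, the transcription factor ATF4 is known to turn on many cytosolic synthetase genes through short C/EBP-ATF response elements.

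The libraries held from 1156568 to 1654764 fragments. Fragments of the mitochondrial genome made up 35.8% of the HT-29 control and 13.8% of HT-29 with SCS, and 62.3% and 46.3% in the same order in NCM460. The libraries therefore held 1061700, 1383424, 507692 and 621582 fragments of nuclear genes. Of 12 markers of colon epithelium, 9 and 8 had a fragment in HT-29 without and with SCS, and 6 in each NCM460 library. KRT20, VIL1 and LGALS4 were at 0 in both NCM460 libraries and CDX2 in both HT-29 libraries. The summed level of these markers was 3239 and 1552 FPKM (fragments per kilobase of transcript, scaled to the library) in HT-29, and 3372 and 1643 FPKM in NCM460, and most of it was KRT8, KRT18 and KRT19. Of the 8 compared in HT-29, CDH1, KRT20 and LGALS4 were called higher and KRT8, KRT18, KRT19 and VIL1 lower. Of the 6 compared in NCM460, EPCAM was called higher and KRT8, KRT18 and KRT19 lower. Only EPCAM was still called in NCM460 after subtraction of the trend with GC content described below. Of 10 mesenchymal markers, 5 and 4 had a fragment in HT-29, summing to 5.47 and 6.78 FPKM, and 7 in each NCM460 library, summing to 82.3 and 56.2 FPKM. Of 7 leukocyte markers, 3 had a fragment in each HT-29 library, almost all of it LYZ at 185 and 78.8 FPKM, and none had one in NCM460. Of 4 endothelial markers, 2 and 1 had a fragment in HT-29 and likewise in NCM460, and the sum was at most 2.39 FPKM. In bulk RNA, fewer cells of a type and less RNA per cell cannot be told apart. The part of these shifts in the results below was not tested.

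In HT-29, 9 of the 20 genes for cytosolic synthetases and none of the 16 for mitochondrial synthetases were called higher after SCS treatment. Log2 fold changes were taken from CPM (fragments relative to the library total) scaled by TMM, and a gene was called where it differed over 1.5-fold with a 95% counting interval that excluded no change. By this rule 16.8% of the 12168 loci compared were higher and 14.8% lower, while of the cytosolic genes 9 were higher, 1 was lower and 10 were not called. The median log2 fold change of the cytosolic genes was 0.53, and that of all loci compared was 0.07. Of the mitochondrial genes 4 were called lower, with a median log2 fold change of -0.38 and 12 of 16 below 0. The mitochondrial genes held fewer fragments, 768 together in the HT-29 control against 3481 for the cytosolic genes, so their counting intervals were wider. WARS2, with 12 and 23 fragments, passed 1.5-fold at 0.60 but was not called, with an interval of -0.36 to 1.85. The share over all loci is not matched for depth. No test between conditions could be fitted within a line, and these counts describe these libraries.

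**Figure D1:**
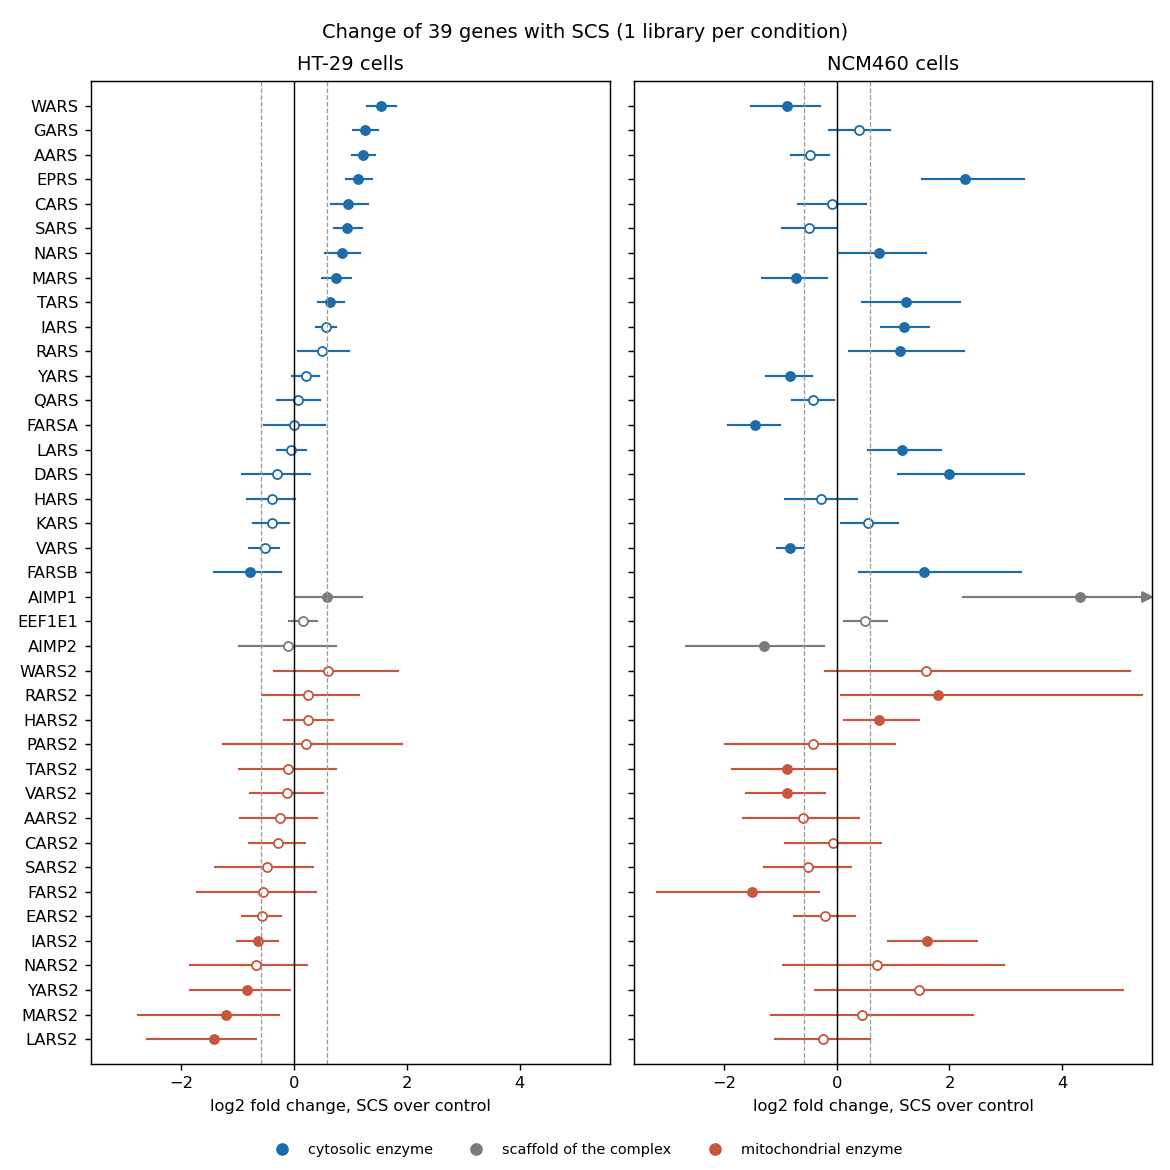
Log2 fold change with SCS for each of the 39 genes (points) with its 95% counting interval (lines, cut at the axis end, an arrow marking a cut upper end) in HT-29 (left) and NCM460 (right), ordered by class and by the value in HT-29. Filled points were called, and dashed lines mark 1.5-fold. In HT-29 the filled cytosolic points lie to the right except FARSB at -0.77, and the filled mitochondrial points lie to the left. The point of AIMP1 in NCM460, at 0 fragments in the control, depends on the prior count.

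WARS, the tryptophanyl-tRNA synthetase (chr14:100333788-100376805, GRCh38, minus strand), had 159 fragments in the HT-29 control and 548 with SCS. Its log2 fold change was 1.54, with an interval of 1.30 to 1.82, the highest among the 39 genes in HT-29. GARS, which charges glycine in both compartments (chr7:30594681-30634033, plus strand), had 224 and 632 fragments. Its log2 fold change was 1.25 (1.04 to 1.49). AARS, the alanyl-tRNA synthetase (chr16:70252295-70289543, minus strand), had 278 and 764 fragments. The log2 fold change of AARS was 1.22 (1.03 to 1.43). EPRS, a single protein that charges both glutamate and proline (chr1:219968601-220046658, minus strand), had 229 fragments without and 598 with SCS. It was higher by 1.14 on the log2 scale (0.93 to 1.38). The calls of WARS, GARS, AARS and EPRS held under each of 13 other ways of scaling, filtering or calling, where their log2 fold changes stayed between 0.75 for EPRS and 1.81 for WARS.

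The other 5 called higher in HT-29 were smaller. CARS, for cysteine, had 113 and 262 fragments, for a log2 change of 0.97 (0.66 to 1.31). SARS, for serine, had 184 and 419 fragments, for a log2 change of 0.95 (0.70 to 1.21). Both intervals lay above 1.5-fold, which is 0.58 on this scale. NARS, for asparagine, had 125 and 266 fragments, for a log2 change of 0.84 (0.55 to 1.18). MARS, for methionine, had 186 and 369 fragments, for a log2 change of 0.75 (0.50 to 1.02). TARS, for threonine, had 235 and 434 fragments, for a log2 change of 0.65 (0.42 to 0.89), and its call was lost in 5 of the 13 alternatives, while CARS, NARS and MARS each lost theirs in 2 and SARS in 1. IARS, for isoleucine, lay just under the limit with 378 and 658 fragments, for a log2 change of 0.56 (0.38 to 0.75).

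FARSB, the beta subunit of the phenylalanine enzyme, was the 1 cytosolic gene called lower in HT-29. FARSB had 63 fragments without SCS and 42 with it, for a log2 change of -0.77 (-1.42 to -0.23). FARSA, the alpha subunit of the same enzyme, had 56 and 66 fragments, for a log2 change of 0.00 (-0.53 to 0.55). The 8 cytosolic genes that were neither called nor named so far, DARS, HARS, KARS, LARS, QARS, RARS, VARS and YARS, ranged from -0.52 for VARS to 0.50 for RARS. Of the scaffolds, AIMP1 had 40 and 72 fragments, for a log2 change of 0.59 (0.04 to 1.21), a call that was lost in 9 of 13 alternatives. AIMP2 had 24 and 26 fragments (-0.10), and the locus that holds EEF1E1 had 241 and 317 (0.16).

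The cytosolic genes called higher in HT-29 were all among the 12 that are described as targets of ATF4. The list of these 12 was taken from general knowledge, with earlier results of these data known. The 12 are AARS, CARS, EPRS, GARS, IARS, LARS, MARS, NARS, SARS, TARS, WARS and YARS. Of them, 9 were called higher and 0 lower in HT-29, with a median log2 fold change of 0.89. Of the other 8 cytosolic genes, 0 were called higher and 1 lower, with a median of -0.34. The 12 ranged from -0.05 for LARS to 1.54 for WARS, and the other 8 from -0.77 for FARSB to 0.50 for RARS, so the ranges overlapped. Of the 8 enzymes of the multi-synthetase complex, EPRS and MARS were called higher, with a median of 0.29. Of the 12 enzymes outside the complex, 7 were called higher and 1 lower, with a median of 0.75. By catalytic fold, leaving out EPRS, which holds an enzyme of each class, 3 of 9 class I and 5 of 10 class II cytosolic genes were called higher in HT-29.

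**Figure D2:**
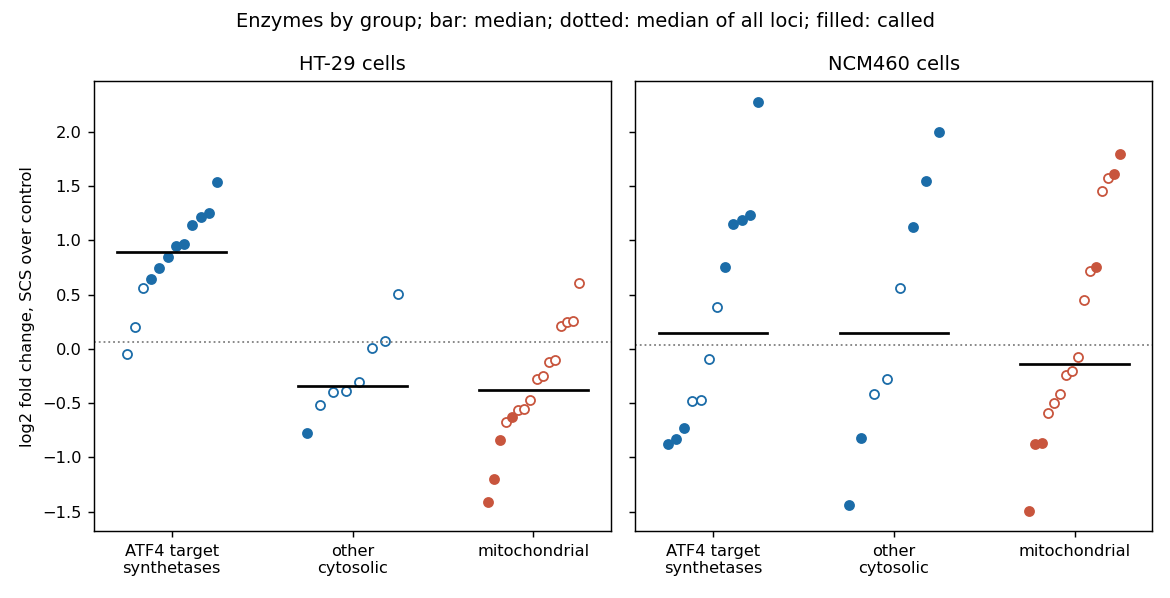
Log2 fold change with SCS (vertical axis) of the 12 synthetase genes described as ATF4 targets, the other 8 cytosolic genes and the 16 mitochondrial genes, in HT-29 (left) and NCM460 (right). Each point is 1 gene, filled where called, bars are medians and the dotted line is the median of all loci compared. In HT-29 the medians are 0.89, -0.34 and -0.38, and in NCM460 they are 0.15, 0.14 and -0.14.

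The C/EBP-ATF response element was looked for in the promoter windows of these genes, from 250 bases before to 50 bases after each start, since a group of them stood higher together. RefSeq windows (GRCh38.p14) were matched for 33 of the 39 genes, and DARS, LARS, VARS, YARS, AARS2 and VARS2 were not matched. The element was written as TGATGNAA and searched on both strands. It was found in 7 of 16 cytosolic genes, 0 of 3 scaffolds and 1 of 14 mitochondrial genes, and in 3.60% of the 15842 protein-coding genes with a window. The stretches that hold it are shown in the direction of the gene, with the element in capitals. TTGCATCA and TTTCATCA are the element read on the opposite strand.
AARS (chr16:70289675-70289704, minus strand): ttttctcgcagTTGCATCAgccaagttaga
CARS (chr11:3057407-3057436, minus strand): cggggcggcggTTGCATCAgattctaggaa
GARS (chr7:30594834-30594863, plus strand): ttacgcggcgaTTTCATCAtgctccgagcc
IARS (chr9:92293692-92293721, minus strand): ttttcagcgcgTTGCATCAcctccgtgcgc
MARS (chr12:57488053-57488082, plus strand): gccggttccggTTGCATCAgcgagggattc
NARS (chr18:57621804-57621833, minus strand): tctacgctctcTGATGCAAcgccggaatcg
TARS (chr5:33440956-33440985, plus strand): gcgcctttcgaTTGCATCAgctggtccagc
YARS2 (chr12:32756076-32756105, minus strand): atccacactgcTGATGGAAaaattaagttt

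All 7 cytosolic genes that hold the element are on the list of ATF4 targets, and 6 of the 7 were called higher in HT-29. Their log2 fold changes ran from 0.56 for IARS to 1.25 for GARS. Of the 9 cytosolic genes with a window and without the element, EPRS, SARS and WARS were called higher and FARSB lower, and the range was -0.77 to 1.54. The element lay close to the start in CARS, from base -2 to 6, in MARS, from -4 to 4, in TARS, from 3 to 10, and in IARS, from -13 to -6. It lay at -187 to -180 in AARS, at 15 to 22 in NARS, and at -33 to -26 of the second of 2 starts of GARS. In YARS2, the 1 mitochondrial gene with the element, it lay at -197 to -190, and that gene was called lower in HT-29. A match of letters is a description and does not show that a factor binds. The list of targets and the element are not independent, since ATF4 is described as acting through this element. The part of ATF4 in these changes was not tested. The E-box CACGTG, searched in the same windows, was in 1 of 16 cytosolic and 3 of 14 mitochondrial genes, and in 10.9% of the protein-coding genes.

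Among the mitochondrial enzymes, LARS2, for leucine (chr3:45388506-45549421, plus strand), had the lowest value in HT-29. The count was 36 fragments without SCS and 14 with it, for a log2 change of -1.41 (-2.60 to -0.67). MARS2, for methionine, had 21 and 9 fragments, for a log2 change of -1.20 (-2.76 to -0.27). YARS2, for tyrosine, had 31 and 19 fragments, for a log2 change of -0.84 (-1.84 to -0.07). IARS2, for isoleucine, had 153 and 115 fragments, for a log2 change of -0.63 (-1.01 to -0.29). The calls of LARS2, MARS2 and YARS2 rest on few fragments, and the value of IARS2 lies close to the 1.5-fold limit. None of the 4 was called with the libraries thinned to equal size, where EARS2 (-0.61) and FARS2 (-1.68) were called lower in their place. The other 12 ran from -0.68 for NARS2 to 0.60 for WARS2. Beside these values, the share of fragments from the mitochondrial genome was 35.8% in the HT-29 control and 13.8% with SCS, and its part in the result was not tested.

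The cytosolic and the mitochondrial enzyme for the same amino acid were then set side by side. In HT-29 the cytosolic gene had the higher log2 fold change in 14 of 16 pairs, with a median difference of 1.12. The difference was widest for methionine, at 0.75 for MARS and -1.20 for MARS2. The exceptions were HARS against HARS2, at -0.39 and 0.25, and VARS against VARS2, at -0.52 and -0.12. The values of HARS, HARS2, VARS2, EARS2 and SARS2 are those of loci that also hold another coding gene, so both exceptions are uncertain. The pairs of EPRS with EARS2 and of SARS with SARS2, which are among the 14, are uncertain for the same reason. EPRS stands in 2 pairs, and FARSA and FARSB enter as their mean. In NCM460 the cytosolic gene was higher in 9 of 16 pairs, with a median difference of 0.03, and in 7 of 16, with a median of -0.18, after subtraction of the trend with GC content described below.

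**Figure D3:**
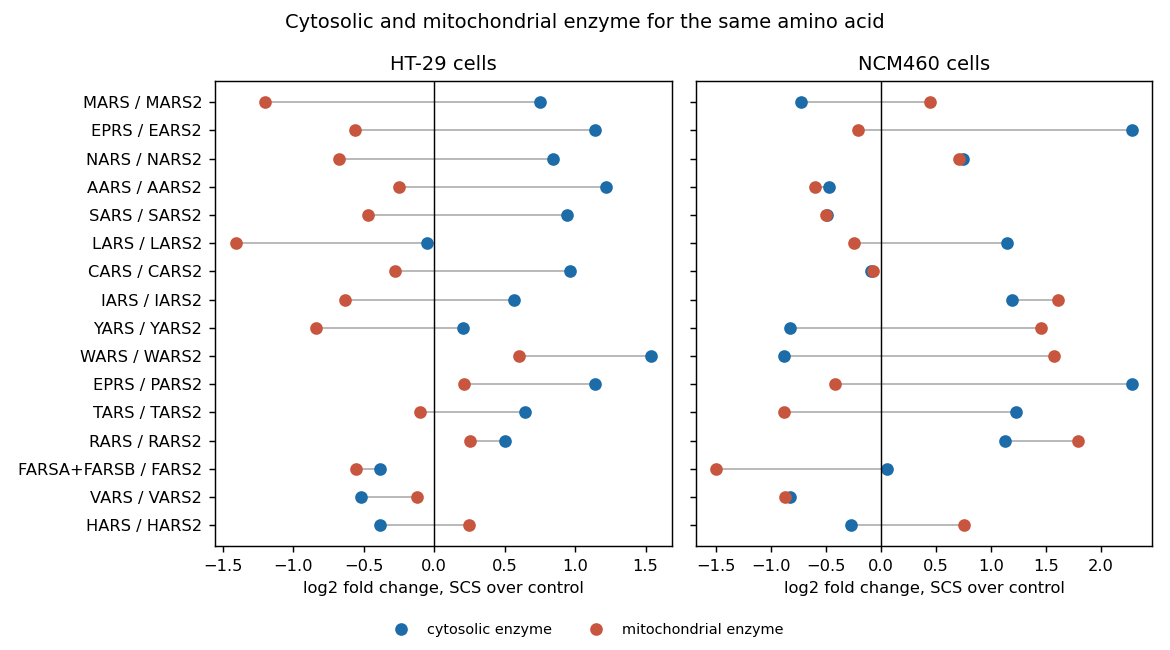
Log2 fold change with SCS (horizontal axis) of the cytosolic (blue) and the mitochondrial (red) enzyme for the same amino acid, joined by a line, in HT-29 (left) and NCM460 (right), ordered by the difference in HT-29. In HT-29 the blue point lies to the right in 14 of 16 pairs, and in NCM460 in 9 of 16.

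As a share of the nuclear fragments, the 20 cytosolic genes together held 0.328% (exact interval 0.317 to 0.339%) in the HT-29 control and 0.464% (0.453 to 0.475%) with SCS. The 16 mitochondrial genes held 0.0723% (0.0673 to 0.0776%) and 0.0498% (0.0462 to 0.0537%). The cytosolic share was thus the larger with SCS and the mitochondrial share the smaller. In NCM460 the cytosolic share was 0.273% (0.259 to 0.288%) in the control and 0.282% (0.269 to 0.295%) with SCS, and the mitochondrial share was 0.0605% (0.0539 to 0.0676%) and 0.0706% (0.0642 to 0.0775%). Both pairs of intervals overlapped in NCM460. The mitochondrial sums include all fragments of the loci that EARS2, HARS2, SARS2 and VARS2 share with another coding gene. In the HT-29 control the loci of EARS2 and HARS2 held 161 and 80 of the 768 fragments, and with SCS 127 and 112 of 689. The cytosolic sums likewise include the locus of HARS. The intervals do not cover this uncertainty.

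In NCM460, calls went in both directions and followed the GC content of the transcripts. Of the 20 cytosolic genes, 8 were called higher, against 15.4% of the 12657 loci compared, and 5 lower, against 13.8%, with a median log2 fold change of 0.15. Of the 16 mitochondrial genes, 3 were called higher and 3 lower, with a median of -0.14. The median of all loci compared was 0.03, and both medians changed sign under some alternatives. The 12 enzymes with the lowest GC content, from 41.2% to 44.3%, held 10 genes called higher and 0 lower, with a median of 1.39. The 12 with the highest, from 53.5% to 62.6%, held 0 called higher and 6 lower, with a median of -0.66. Spearman's rho between GC content and log2 fold change was -0.857 across the 36 enzymes and -0.742 across 7342 loci at a mean of at least 10 CPM. In HT-29 these were -0.049 across the enzymes and -0.173 across 7538 loci. Genes share their libraries here, and the correlations are descriptions.

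**Figure D4:**
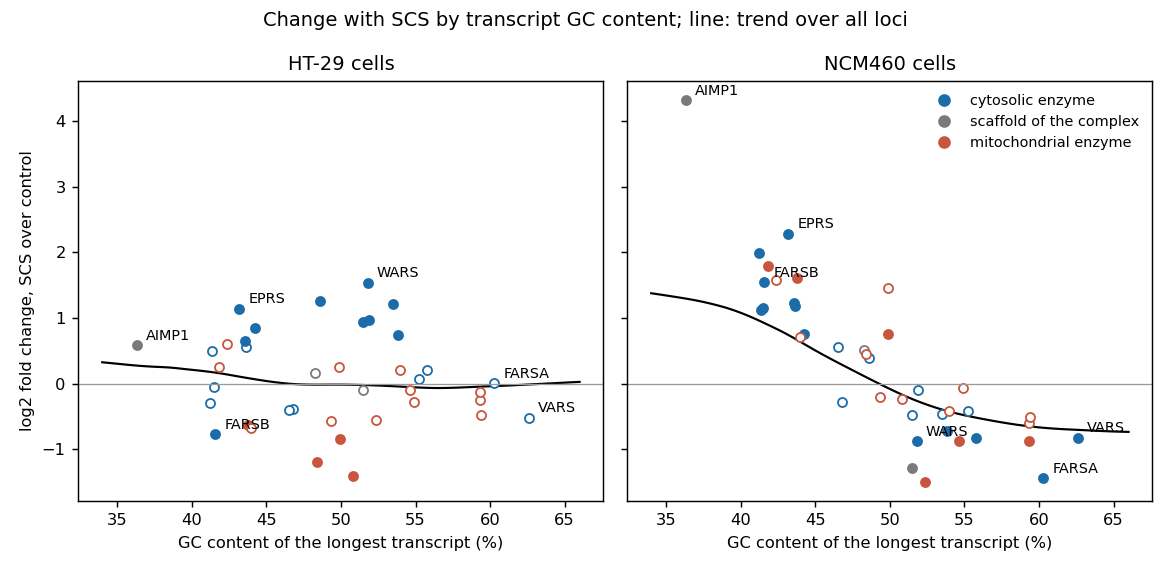
Log2 fold change with SCS (vertical axis) against the GC content of the longest transcript in percent (horizontal axis) for the 39 genes, in HT-29 (left) and NCM460 (right). Filled points were called, and the black line is the trend over all loci compared. In NCM460 the points follow the falling line, with EPRS and AIMP1 above it and FARSA and WARS below it, while in HT-29 the line is nearly flat and the called genes lie on both sides of it.

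With the trend of all loci against GC content subtracted, 2 cytosolic genes were called higher in NCM460, against 5.59% of 12600 loci, and 2 lower, against 6.25%. The 2 called higher were EPRS and DARS, and the 2 lower were FARSA and WARS. EPRS had 13 fragments in the NCM460 control and 93 with SCS, for a log2 change of 2.28 (1.52 to 3.33) that was 1.54 after subtraction. DARS, for aspartate, had 9 and 54 fragments and was 3.99-fold higher, with an interval of 1.08 to 3.32 on the log2 scale, where it stood at 1.04 after subtraction. Both were higher with SCS on both scales.

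FARSA had 121 fragments in the NCM460 control and 61 with SCS, for a log2 change of -1.44 (-1.93 to -1.01), and -0.77 after subtraction. FARSB, its partner subunit, had 6 and 27 fragments, for a log2 change of 1.55 (0.39 to 3.26), and 0.63 after subtraction, which was not called. The GC content was 60.3% for FARSA and 41.6% for FARSB, and the genes for the subunits of 1 enzyme stood on opposite sides of 0 in this line. WARS had 55 and 41 fragments in NCM460, for a log2 change of -0.88 (-1.52 to -0.29), and -0.61 after subtraction. It was thus lower with SCS in NCM460 and higher in HT-29.

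The other cytosolic calls in NCM460 were lost with the GC trend subtracted. IARS had 61 and 195 fragments and went from 1.19 to 0.50 on the log2 scale. LARS had 28 and 88 fragments and went from 1.15 to 0.22, and TARS had 16 and 54 and went from 1.23 to 0.54. RARS had 12 and 38 fragments and went from 1.13 to 0.18, and NARS had 21 and 50 and went from 0.75 to 0.15. These 5 had transcripts of at most 44.3% GC. Of those lower, VARS had 340 and 266 fragments and went from -0.82 to -0.12, MARS had 59 and 49 and went from -0.73 to -0.31, and YARS had 117 and 91 and went from -0.83 to -0.31. The GC content of these 3 ran from 53.8% for MARS to 62.6% for VARS.

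In HT-29 the same subtraction left 8 of the 9 cytosolic calls higher, with TARS lost at 0.56, against 14.5% of 12106 loci higher and 30.4% called in either direction. The cytosolic median was 0.40 and the mitochondrial median -0.33 in HT-29 with the trend subtracted. In NCM460 they were 0.17 and 0.11.

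Several mitochondrial genes were near the lower limit of counting in NCM460, where 3 fragments are worth 3.85 CPM in the control and 2.77 CPM with SCS. IARS2 had 18 and 79 fragments there, for a log2 change of 1.61 (0.91 to 2.49), and 0.94 after subtraction of the GC trend, a call that held in all 13 alternatives. The HARS2 locus had 29 and 69 fragments, for a log2 change of 0.76 (0.13 to 1.46), and 0.83 after subtraction. RARS2, for arginine, had 2 and 13 fragments, a ratio of 4.68 with a counting interval of 1.06 to 42.7. RARS2 was called higher, but not after subtraction, at 0.90 on the log2 scale with an interval from -0.81. WARS2 had 2 and 11 fragments, a ratio of 3.96 (0.864 to 36.8), and YARS2 had 2 and 10, a ratio of 3.60 (0.767 to 33.8). These 3 ratios are not determined beyond a wide range. Lower in NCM460 were FARS2, with 16 and 7 fragments (-1.49), TARS2, with 26 and 19 (-0.88), and the locus of VARS2, with 43 and 32 (-0.87), and none of these was called after subtraction, at -1.18, -0.42 and -0.22. The interval of FARS2 then ran from -2.88 to 0.0066.

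AIMP1, a scaffold of the complex with the lowest GC content of the 39 genes at 36.3%, had 0 fragments in the NCM460 control and 26 with SCS. Against the floor of 3 fragments in the control library it was at least 6.24-fold higher, or at least 2.54-fold with the GC trend subtracted. These bounds leave out the counting error of the 26 fragments, and the counting interval of the fold began at 4.72. AIMP2 had 19 and 10 fragments there, for a log2 change of -1.29 (-2.67 to -0.22), or -1.05 and not called after subtraction. The EEF1E1 locus had 88 and 174 fragments, for a log2 change of 0.51 (0.13 to 0.90).

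A model of 1 change with SCS shared by both lines, with the line as a term, left 1 residual degree of freedom. edgeR's quasi-likelihood test found 0 of 38 members at a Benjamini-Hochberg adjusted p under 0.05, and 2 at an unadjusted p under 0.05. DESeq2 found 0 of the 14 members that it gave an adjusted p. Among all members with a p-value from DESeq2, 1 was at an unadjusted p under 0.05. Over all loci the numbers at an adjusted p under 0.05 were 6 of 9527 by edgeR and 37 of 1295 by DESeq2. At an unadjusted p under 0.05 they were 574 of 9527 by edgeR and 231 by DESeq2, so the members did not stand out. This model asks only for a change common to both lines.

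Levels were compared between genes per length, as FPKM. The cytosolic genes had a median of 31.1 FPKM in the HT-29 control and 28.0 FPKM with SCS, and the mitochondrial genes 6.01 and 3.76 FPKM. In NCM460 the cytosolic medians were 35.9 and 28.9 FPKM and the mitochondrial medians 8.50 and 6.42 FPKM. Taken from FPKM, the median log2 fold change of all loci lay lower by 0.19 in HT-29 and 0.37 in NCM460 than with TMM scaling. These medians are therefore not read as a change with SCS. IARS had the highest cytosolic level in the HT-29 control at 52.1 FPKM, and GARS with SCS at 78.6 FPKM. QARS, for glutamine, had the highest in NCM460, at 113 FPKM in the control and 81.9 FPKM with SCS. FARSB had the lowest cytosolic level in each library, at 8.05, 3.81, 3.01 and 7.21 FPKM in the order HT-29 control, HT-29 with SCS, NCM460 control and NCM460 with SCS. The lowest mitochondrial level was that of PARS2 in the HT-29 control (1.22 FPKM) and in NCM460 with SCS (2.99 FPKM), of MARS2 in HT-29 with SCS (1.31 FPKM) and of RARS2 in the NCM460 control (1.88 FPKM). The highest was that of a merged locus in each library, EARS2 with GGA2 in the HT-29 control (23.6 FPKM) and HARS2 with ZMAT2 in the others (18.7, 37.7 and 34.5 FPKM).

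**Figure D5:**
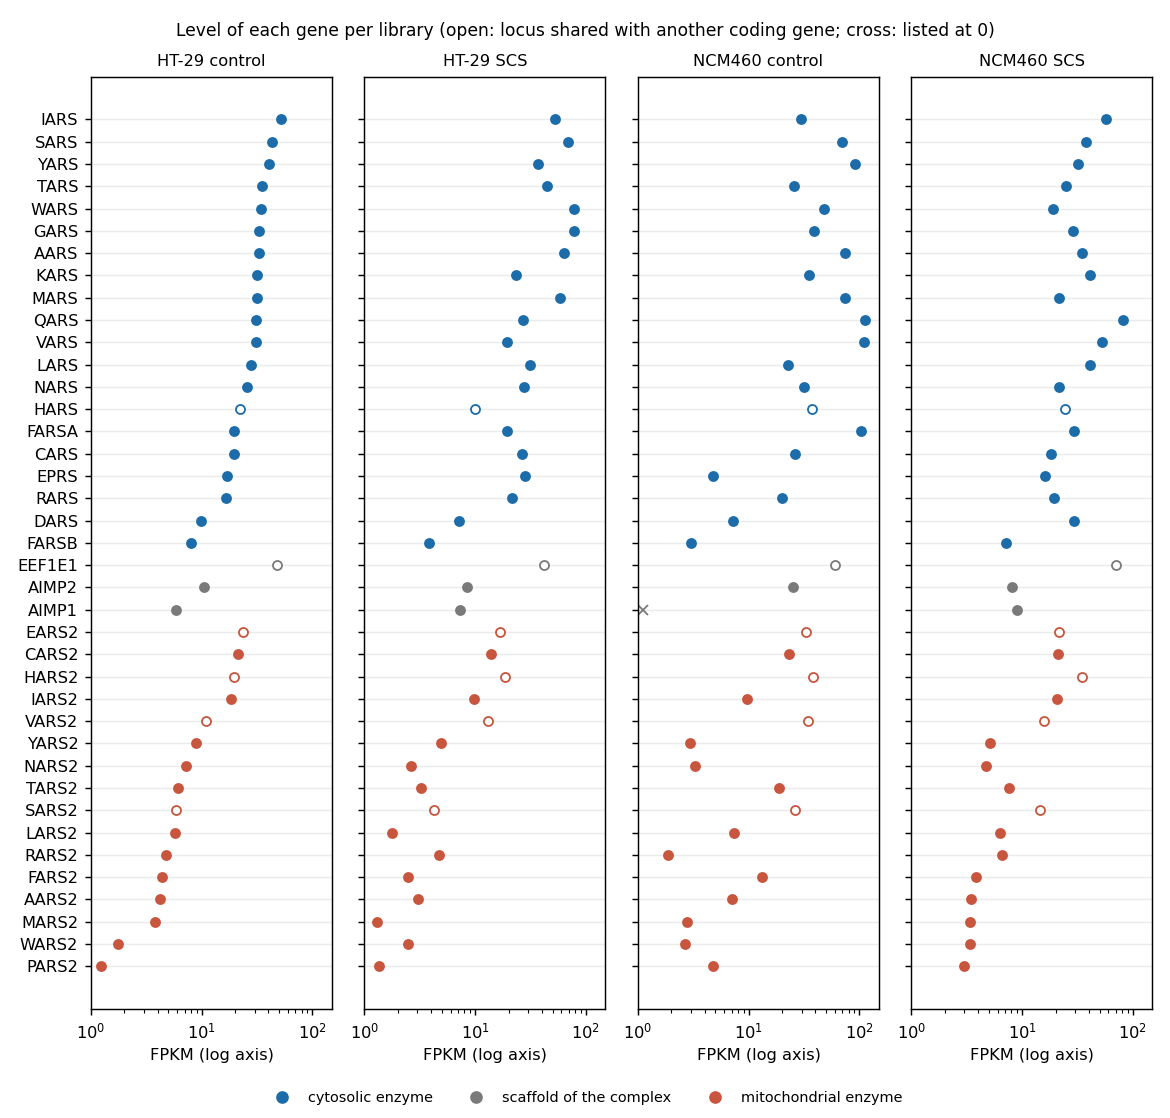
Deposited FPKM (horizontal log axis) of each of the 39 genes in the 4 libraries, ordered by class and by the level in the HT-29 control. Open points are loci that also hold another coding gene, and the cross is AIMP1, listed at 0 in the NCM460 control. Most cytosolic genes lie to the right of most mitochondrial genes, with medians of 31.1 and 6.01 FPKM in the HT-29 control.

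Of the 39 genes, 6 share all their values with another coding gene and are uncertain for that reason. HARS shares them with DND1, HARS2 with ZMAT2, EARS2 with GGA2, SARS2 with FBXO17, VARS2 with GTF2H4, and EEF1E1 with BLOC1S5 and TXNDC5. MARS and QARS are merged with microRNA genes that lie in them. HARS and HARS2 are transcribed away from each other, and their promoter windows share 184 bases. CARS, VARS and VARS2 have more than 1 row in the table, of which 1 row each, on an alternate-haplotype scaffold, held fragments.

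Genes on the same pathway were described in the same way, and their counts stand against 16.8% of all loci called higher and 14.8% lower in HT-29, and 15.4% and 13.8% in NCM460. With the GC trend subtracted, the shares in NCM460 were 5.59% and 6.25%. The highest and lowest genes are those among genes with a mean of 5 CPM or more. Some genes of these lists share all values with other genes, among them GATC with COX6A1, ELAC1 with SMAD4, DTD2 with HEATR5A and ADAT3 with SCAMP4. Values given for such genes are those of the merged locus. Of 22 genes of the amino acid response, in which ATF4 and its other targets stand, 15 were called higher and 1 lower in HT-29, with a median log2 fold change of 1.09. ATF4 itself had 387 and 703 fragments, for a log2 change of 0.63. The highest was NUPR1, a stress-induced nuclear protein, with 0 and 49 fragments, and the lowest was PHGDH, the first enzyme of serine synthesis, at -0.79. In NCM460, 2 of the 20 genes compared were called higher and 8 lower, with a median of -0.72. The values there ran from SLC7A11, a cystine transporter, with 4 and 16 fragments, to TRIB3, an inhibitor of ATF4, at -1.42. With the GC trend subtracted, 0 were called higher and 7 lower in NCM460, with a median of -0.27, and SLC38A2, an amino acid transporter, went from 0.59, called higher, to -0.62, called lower.

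Of 21 genes of tRNA maturation and export, 2 were called higher and 5 lower in HT-29. The highest was XPOT, the exporter of tRNA from the nucleus, at 285 and 716 fragments, for a log2 change of 1.09. The other call higher was that of the locus that ELAC1 shares with SMAD4. In NCM460, 3 were called higher and 1 lower. Among genes with a mean of 5 CPM or more, values ran from SSB at 1.82 to POP7, of RNase P, at -1.16. SSB binds the ends of RNA polymerase III transcripts. RPP30, below that limit with 0 and 8 fragments, was called higher at 2.77. With the GC trend subtracted, 1 of the 21 genes was called higher in NCM460 and 0 lower. Of 30 tRNA modification genes, 0 were called higher and 5 lower in HT-29, with a median of -0.34. PUS7, a pseudouridine synthase, was lowest at -1.40, and TRMT5, a tRNA methyltransferase, was highest at 0.89 with 8 and 20 fragments, which was not called. In NCM460, 3 of the 29 compared were called higher and 2 lower. These ran from ADAT2, with 1 and 14 fragments and an interval of 0.62 to 8.74, to the locus of ADAT3 at -1.28, both subunits of the tRNA adenosine deaminase, and with the GC trend subtracted 1 was called higher and 1 lower.

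Of 21 genes of RNA polymerase III and its factors, which transcribe tRNA genes, 3 were called higher and 7 lower in HT-29. They ran from POLR3C, with 9 and 27 fragments and 1.14, to POLR3K, with 27 and 8 fragments and -1.65. In NCM460, 3 were called higher and 3 lower, from POLR3G, with 1 and 19 fragments, to GTF3C5 at -1.39. After subtraction of the GC trend, 0 were called higher and 2 lower, and POLR3G was not called. Of 7 elongation factors, EEF1A1, which brings charged tRNA to the ribosome, was at 0.44 in HT-29 and 1.34 in NCM460, the highest in each. The lowest was TUFM, its mitochondrial counterpart, at -0.86 in HT-29, where 0 were called higher and 1 lower. In NCM460, 2 were called higher and 2 lower, and the lowest was EEF1A2 at -1.29. After subtraction of the GC trend, EEF1A1 alone of the 7 was called, higher.

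The amidotransferase makes mitochondrial glutaminyl-tRNA without a synthetase of its own. Of the 4 genes of this step and of formylation, 0 were called in HT-29. Among those with a mean of 5 CPM or more, values ran from the locus that GATC shares with COX6A1, at -0.10, to QRSL1 at 0.88. MTFMT, below that limit with 12 and 5 fragments, was at -1.09. In NCM460 QRSL1 was called higher with 2 and 17 fragments (interval 0.54 to 5.77), and MTFMT was lowest at -0.65. With the GC trend subtracted, QRSL1 was not called (interval from -0.49) and the locus of GATC was called lower at -0.79. None of 3 editing factors, which remove wrongly charged amino acids, was called in either line. They ran from AARSD1 at -0.30 to DTD1 at 0.42 in HT-29, and from AARSD1 at -0.80 to DTD2, with 2 and 11 fragments, in NCM460.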

How the data were processed

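RNA-seq was made from HT-29 and NCM460 cells, control and SCS, with 1 library per condition. Per the paper, RNA was extracted with TRIzol and sequenced as paired ends, low-quality, poly-N and adapter reads were discarded, and Cuffdiff was used. The submitters' processing notes name bcl2fastq 2.17.1.14, cutadapt 1.9.1, Bowtie2, HTSeq 0.6.1 and hg19, but the coordinates of the table are those of GRCh38. Whether counting used strand is not given in the sources used here.

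The authors deposited 1 table, with counts and FPKM for every library. The deposited count signal is not whole, since the authors divided fragments by size factors. Levels are the FPKM values as deposited. The design had assumed whole counts. Divided by what 1 fragment is worth, 99.8% to 99.9% of values were whole within 0.05. The 26 rows with no gene name held at most 0.0352% of the counts and were left out. Adjacent rows with identical values were merged into 18650 loci, of which 1812 hold more than 1 gene. Transcript GC content came from GENCODE release 29 for 99.4% of the loci compared.

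Fragments were scaled by TMM (edgeR 4.0.16 in R 4.3.3), and the prior count was 2. Compared were loci with a mean of 1 CPM or more in a line, among them all 39 members. The 95% counting intervals (Clopper-Pearson, exact) come from the SCS library's share of each locus's fragments. Trends over GC content were fitted by lowess with a span of 0.3. A gene without a fragment was bounded against 3 fragments per library. The steps were tested on simulated data. With 1 library per condition no count test could be fitted within a line. The shared model of both lines (edgeR and DESeq2 1.42.0) and the removal of members merged with another coding gene were added after the data were seen.

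The members and lists were chosen with earlier results of these data known. Named were each member called in either line, the highest and lowest FPKM member of each class in each library, each member at 3 fragments or fewer or in a merged locus, and of each other pathway list the highest and lowest log2 fold change per line among genes with a mean of 5 CPM or more. ATF4 and the markers at 0 were named after their values were seen. 1 gene named by this rule is not reported here.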

Additional observations from a re-analysis of the deposited data

Results flagged for a closer look

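The effect of SCS went in opposite directions in the 2 lines for 4 genes that were called in both, and the difference between the lines was not tested. FARSB had a log2 fold change of -0.774 in HT-29 and 1.55 in NCM460. MARS had 0.748 in HT-29 and -0.726 in NCM460. WARS had 1.54 in HT-29 and -0.876 in NCM460. IARS2 had -0.63 in HT-29 and 1.61 in NCM460. With the GC trend subtracted, WARS (1.56 and -0.61) and IARS2 (-0.71 and 0.94) were still called in both lines, while FARSB and MARS were no longer called in NCM460. EPRS, NARS, TARS and AIMP1 were also called in both lines, and each of them was higher in both. Of these, only EPRS was still called in both lines with the GC trend subtracted. How many of all loci called in both lines went in opposite directions was not counted.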

How the results depend on the processing

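No paired analysis was possible because there was 1 library per condition and the labels carry no replicate numbers, and no library could be left out. In HT-29 the cytosolic median stayed above 0 (0.13 by deposited FPKM to 0.81 by total counts) and the mitochondrial median below 0 (-0.55 to -0.12) under all 13 alternatives, while the scaffold median went to -0.19 by FPKM. In NCM460 the cytosolic median went to -0.48 by FPKM, and the mitochondrial median to 0.52 by total counts, 0.04 by nuclear totals, 0.11 with the GC trend subtracted and 0.19 without loci that hold another coding gene. Counts of calls moved as follows. In HT-29 the main 9 cytosolic genes higher became 6 by FPKM and 4 at a log2 fold change of 1, and the 1 lower became 0 by total counts, by thinning and at a log2 fold change of 1, 2 by nuclear totals or with a length trend subtracted, and 3 by FPKM. The number of mitochondrial genes lower, 4, was 1 by total counts, 8 by FPKM, 2 at a log2 fold change of 1, and 2 by thinning, which were EARS2 and FARS2 and none of the 4. The 1 scaffold higher became 0 by DESeq2 size factors, nuclear totals, the authors' scaling, FPKM, thinning, a log2 fold change of 1, and with a GC, length or expression trend subtracted.

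In NCM460 the 8 cytosolic genes higher became 5 by FPKM and 2 with the GC trend subtracted. The 5 lower became 1 by total counts and at a log2 fold change of 1, 8 by FPKM, and 2 after subtraction of the GC or of the expression trend. The 3 mitochondrial genes higher became 5 by total counts and 1 by the authors' scaling, and the 3 lower became 0 by total counts or with the GC trend subtracted, 7 by FPKM and 1 at a log2 fold change of 1. The 1 scaffold higher became 2 by total counts, nuclear totals or with the expression trend subtracted, and the 1 lower became 0 by total counts or with the GC trend subtracted. By FPKM, NARS (-0.53), RARS (-0.033), TARS (-0.035) and HARS2 (-0.13) changed sign in NCM460. Total counts include mitochondrial RNA and moved the median of all loci by 0.25 in HT-29 and 0.56 in NCM460, nuclear totals by -0.14 and 0.16, and FPKM by -0.19 and -0.37. Other causes were not tested. By total counts, 26.2% of calls in HT-29 and 5.91% in NCM460 were lower, against 46.9% and 47.3%.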
